A study of Mus musculus with 10 samples.

Results

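The genes described here are 38 mouse genes of mitosis, the kinetochore and proliferation, read from a deposited table of 55401 genes. They were chosen by symbol with earlier results of the same 10 libraries in view, from the contrast between SCVS and naive mice, so their counts in the 2 groups are given as a description. All 38 symbols matched exactly 1 row of the table. For the text they were placed in 7 roles, 6 of them mitotic (29 genes) and 1 for DNA replication and nucleotide supply (9 genes).

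The series profiled RNA of meningeal lymphatic endothelial cells (LECs) from female C57BL/6 mice (C57BL/6J in the methods of the study) aged 3 months, in 5 naive replicates and 5 replicates taken after 6 days of sub-chronic variable stress (SCVS). SCVS alternated foot shock, tail suspension and restraint, and naive mice received none of these. All replicates of both groups shared the digestion of the meninges with collagenase, DNase and actinomycin D, the sorting of viable cells negative for CD45 and positive for CD31 and podoplanin, and the amplification of RNA from small inputs. Each replicate pooled the meninges of 3 to 4 animals, so that single animals cannot be followed.

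In the mitotic phase of the cell cycle, sister chromatids are attached to spindle microtubules through kinetochores, the protein assemblies built on centromeres. The NDC80 complex binds the microtubule, the spindle checkpoint delays anaphase until attachment is complete, and the anaphase-promoting complex (APC/C) then marks cyclin B and securin for degradation. Most of these genes are transcribed around the later part of the cell cycle, whereas those of the MCM helicase and of nucleotide synthesis are induced earlier, near the start of DNA replication. The endothelium of adult lymphatic vessels is known as a largely quiescent tissue.

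Sequencing depth ran from 9984743 to 14094155 counts in total per replicate. Levels are given as CPM, the count of a gene per 1000000 counts of its replicate. A gene with at most 3 counts was treated as not detected, a floor of 0.213 to 0.3005 CPM depending on the replicate. The floor allows for counting error alone, since RNA was amplified and reads were not collapsed to molecules.

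Some libraries stood apart in their markers. Of 7 lymphatic endothelial markers (Prox1, Lyve1, Flt4, Pdpn, Mmrn1, Ccl21a and Reln), naive replicate 1 had 4 above the floor, with 0 counts of Prox1 and Pdpn and 2 of Lyve1. Naive replicate 5 had 1 count of Lyve1 and 11 of Reln, and SCVS replicate 5 had 2 counts of Prox1. The summed level of this list was 60.8, 2747, 1019, 1180 and 185 CPM in naive replicates 1 to 5 and 1378, 1123, 3074, 3051 and 439.5 CPM in SCVS replicates 1 to 5, and its most abundant gene was Mmrn1. The pan-endothelial list was lowest in naive replicate 5, at 609 CPM against 4104 to 7683 CPM in the other 9. The blood endothelial list, led by Plvap, had 7854, 5935, 10258, 7592 and 313 CPM in naive replicates 1 to 5. In SCVS replicates 1 to 5 it had 6420, 9112, 5403, 5050 and 5219 CPM. It was above the lymphatic endothelial list in every replicate. The mural list, led by Rgs5, ranged from 425 to 7469 CPM, and the fibroblast list, led by Dcn, from 40.9 to 1500 CPM. In naive replicate 5 the neuronal and glial list reached 3414 CPM, led by Snap25 and Mbp. This list had 1869 CPM in SCVS replicate 5, 1640 CPM in SCVS replicate 4 and 151 to 931 CPM elsewhere. The erythroid list, led by Hba-a1, had 4915 CPM in SCVS replicate 5 and at most 125.5 CPM elsewhere.

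Macrophage and monocyte markers (Ptprc, Cd68, Csf1r, Mrc1, Lyz2, C1qa, C1qb, Cx3cr1 and Adgre1) summed to 1.25, 150, 19.6, 667 and 149 CPM in naive replicates 1 to 5 and to 224, 133, 880, 5744 and 305 CPM in SCVS replicates 1 to 5, with Lyz2 as the most abundant gene. The naive replicates, in order, had 1, 3, 2, 8 and 5 of the 9 above the floor, and the SCVS replicates 6, 2, 6, 9 and 5. In SCVS replicate 3, Ptprc (the CD45 gene), Cd68 and Cx3cr1 were at 0. The other 6 of the 9 were present there. They had 6457 counts of Lyz2, 2103 of Mrc1, 739 of C1qb, 685 of C1qa, 559 of Adgre1 and 305 of Csf1r. Mrc1 is also known from LECs and Lyve1 from macrophages. The T-lineage list summed to at most 1.23 CPM in any replicate. The neutrophil and progenitor list was highest in naive replicates 3 and 4, at 24.4 and 10.7 CPM. In SCVS replicates 1 to 5 it had 6.74, 0.904, 5.36, 4.84 and 2.90 CPM. Elane, Prtn3 and Ctsg were never above the floor. Among 11 marker lists compared between the groups, the B-lineage list had the smallest p, at 213 ± 75.9 CPM in naive and 98.2 ± 21.0 CPM in SCVS replicates (SD, n = 5 each; two-sided p of 0.0238 and adjusted p of 0.262 by exact permutation), and Ebf1 was its most abundant gene. The other 10 had two-sided adjusted p from 0.480 to 0.960 by exact permutation (n = 5 each). What part the other cell types had in the results was not tested.

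The summed level of the mitotic genes was highest in SCVS replicates 3 and 4. In naive replicates 15 of the 29 were never above the floor. The same held for 19.3% of the 24195 genes above the floor in at least 1 replicate. It held for 1.24% of the 14815 genes that passed the filter on low counts. In naive replicates 6 of the 29 exceeded 10 CPM in at least 1 replicate (Aurka, Mad2l1, Cdc20, Cenpa, Ndc80 and Kif23). The 29 genes together had 123, 34.9, 81.4, 103 and 19.5 CPM in naive replicates 1 to 5. They had 30.6, 83.6, 1731, 1090 and 120.3 CPM in SCVS replicates 1 to 5. SCVS replicates 3 and 4 thus lay above all other libraries, while SCVS replicates 1, 2 and 5 fell within the naive range. The means were 72.3 ± 44.0 CPM in naive and 611 ± 765 CPM in SCVS replicates (SD, n = 5 each), a difference smaller than the SCVS spread. Without SCVS replicate 3 the SCVS mean was 331 ± 507 CPM, and without SCVS replicate 4 it was 491.5 ± 827.5 CPM (SD, n = 4 each). Without naive replicates 1 and 5 the naive mean was 72.95 ± 34.6 CPM (SD, n = 3). In bulk RNA, more cells in mitosis and more of these transcripts per cell cannot be told apart.

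**Figure D1:**
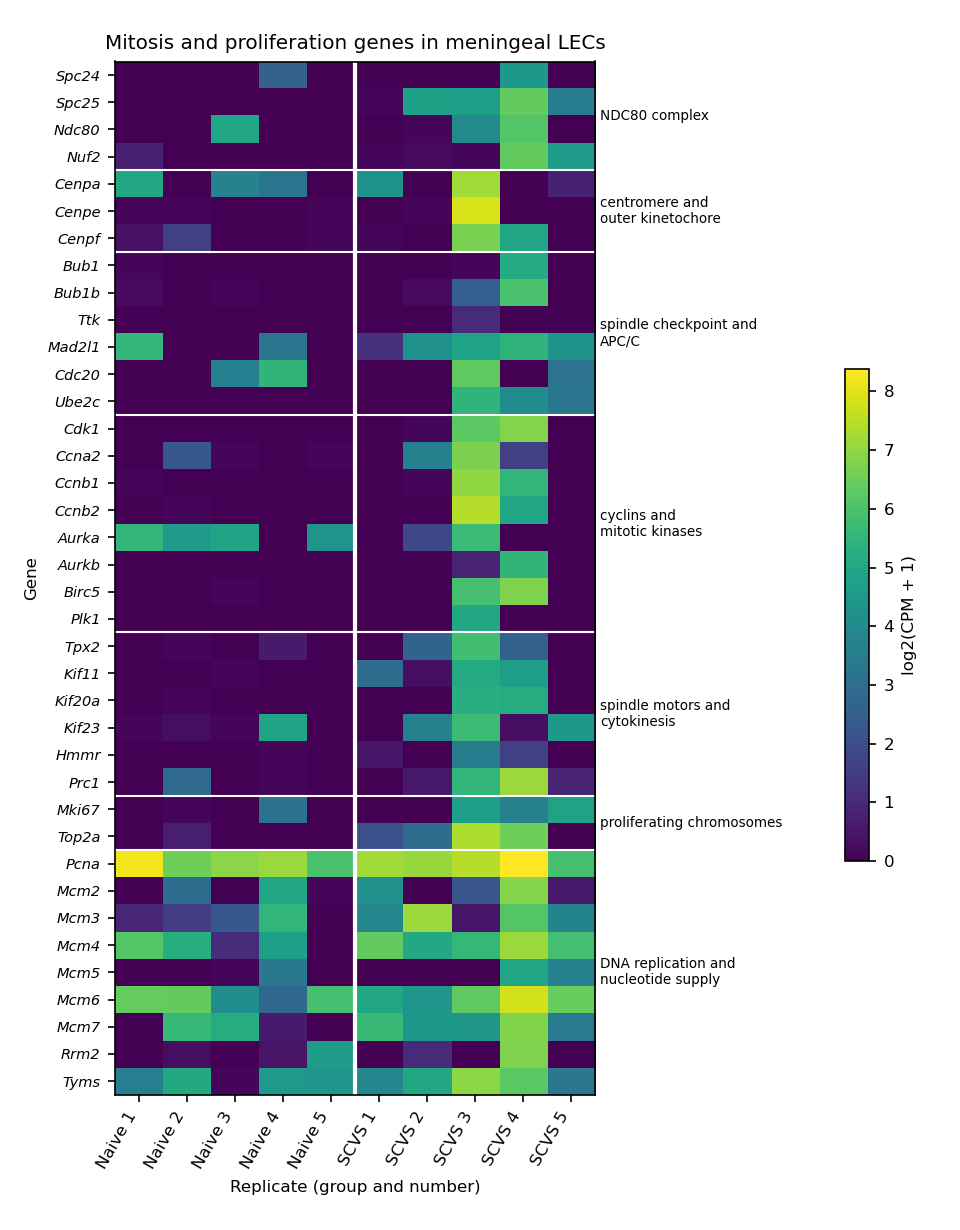
Level of each of the 38 genes, as log2(CPM + 1) on the color scale, in the 5 naive and 5 SCVS replicates, with genes in rows grouped by role and replicates in columns. SCVS replicates 3 and 4 hold the highest value of 35 of the 38 genes, and the replication genes in the lowest block are present in both groups.

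Counted by detection, 4, 5, 4, 7 and 1 of the 29 mitotic genes were above the floor in naive replicates 1 to 5. In SCVS replicates 1 to 5 the numbers were 5, 8, 26, 22 and 9. Of all 14815 genes that passed the filter on low counts, 75.7% were above the floor in SCVS replicate 3 and 80.2% in SCVS replicate 4, within the range of 68.6% to 83.75% over the 10 replicates. Genes with at least 1 count were most numerous in SCVS replicate 4, at 15988, and numbered 14471 in SCVS replicate 3, within the range of 13984 to 15988. The highest value was in SCVS replicate 3 or 4 for 27 of 29 mitotic genes (93.1%), for 2938 of all genes tested (19.8%) and for 4921 of the 24195 genes above the floor in at least 1 replicate (20.3%). The last of these sets includes, like the 29, genes that did not pass the filter. The exceptions were Mki67, highest in SCVS replicate 5, and Mad2l1, highest in naive replicate 1. Together SCVS replicates 3 and 4 held 83.3% of all counts on the mitotic genes and 20.3% of all counts in the table. Within the naive group, 34.8% of all genes tested had 0 counts in 1 replicate and at least 100 in another. This held for 27.0% of the genes above the floor in at least 1 replicate and for 7 of the 29 mitotic genes (24.1%). Within the SCVS group the same shares were 32.5%, 25.8% and 86.2% (25 of the 29). Such uneven detection was thus common among all genes.

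The mitotic genes detected in these libraries overlapped in part. Of the 29, 19 (65.5%) were above the floor in both, beside 65.1% of all genes tested and 40.4% of those above the floor in at least 1 replicate, 7 in SCVS replicate 3 and not in SCVS replicate 4 (Cenpa, Cenpe, Aurka, Plk1, Kif23, Ttk and Cdc20) and 3 the other way around (Spc24, Nuf2 and Bub1). For 11 genes SCVS replicate 3 or 4 was the only place of detection among the 10 libraries: Cdk1, Ccnb1, Ccnb2, Bub1, Bub1b, Cenpe, Aurkb, Birc5, Plk1, Kif20a and Ttk. The same was found for 1443 of the 24195 genes above the floor in at least 1 replicate (5.96%). Macrophage markers and lymphatic endothelial markers were both highest in SCVS replicates 3 and 4 among the SCVS libraries. The neuronal and glial list had 199 CPM in SCVS replicate 3, 1640 CPM in SCVS replicate 4 and 1869 CPM in SCVS replicate 5. What part these cell types had in the mitotic signal was not tested.

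**Figure D2:**
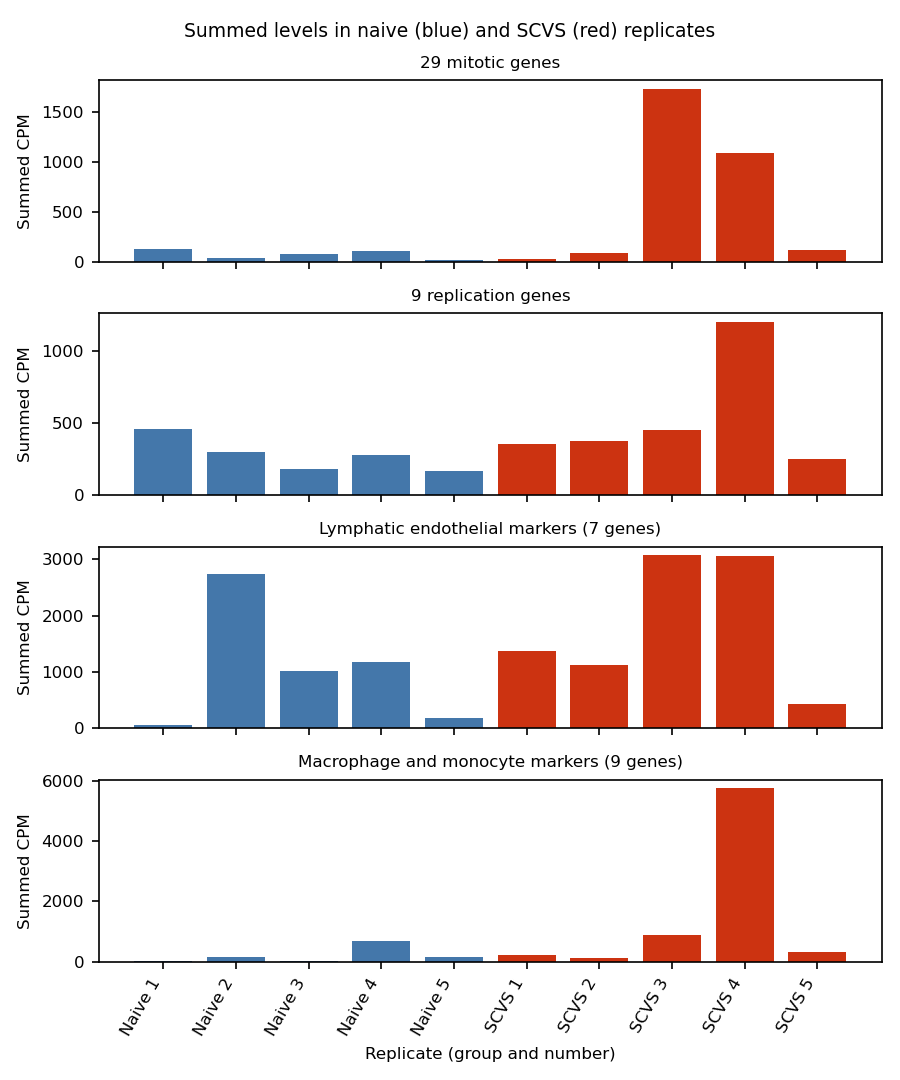
Summed CPM (vertical axes, from 0) of the 29 mitotic genes, the 9 replication genes, 7 lymphatic endothelial markers and 9 macrophage and monocyte markers, 1 bar for each naive (blue) and SCVS (red) replicate. The mitotic sum reaches 1731 and 1090 CPM in SCVS replicates 3 and 4, where macrophage markers have 880 and 5744 CPM and lymphatic endothelial markers 3074 and 3051 CPM.

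The NDC80 complex joins the kinetochore to the microtubule, with Ndc80 and Nuf2 forming the end that holds the microtubule and Spc24 and Spc25 the end that faces the centromere. Spc25 (ENSMUSG00000005233, chr2:69193895-69206213) had 0 counts in all 5 naive replicates. It had 1, 323, 316, 1091 and 108 counts in SCVS replicates 1 to 5, a mean of 29.1 ± 31.8 CPM (SD, n = 5), at least 122.9-fold above the mean CPM of the floor in naive replicates, and at least 66.6-fold without SCVS replicate 4. Spc25 was the only 1 of the 38 genes with every SCVS replicate above every naive replicate, by a single count in SCVS replicate 1, a pattern that 0.445% of all genes tested had. Ndc80 (ENSMUSG00000024056, chr17:71496100-71526857) had 0, 0, 407, 0 and 0 counts in naive replicates, against 0, 1, 184, 925 and 0 counts in SCVS replicates. Nuf2 (ENSMUSG00000026683, chr1:169497934-169531464) had 7, 0, 0, 0 and 0 counts in naive replicates and 1, 2, 1, 1071 and 238 counts in SCVS replicates. Ndc80 and Nuf2 overlapped between the groups, and each was high in a different pair of SCVS libraries. Spc24 (ENSMUSG00000074476, chr9:21755434-21760446) was found in naive replicate 4, with 70 counts, and in SCVS replicate 4, with 282, and was at 0 in the other 8.

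All 4 subunits were found together in SCVS replicate 4 and in no other library. SCVS replicates 3 and 5 had 2 of the 4 above the floor, SCVS replicate 2 and naive replicates 1, 3 and 4 had 1, and naive replicates 2 and 5 and SCVS replicate 1 had none. The summed level was 6.99 ± 12.6 CPM in naive (1.46 ± 2.49 CPM without naive replicate 3, SD, n = 4) and 71.4 ± 104 CPM in SCVS replicates (SD, n = 5 each), with an SCVS mean of 79.0 ± 118 CPM without SCVS replicate 3 and 25.6 ± 17.9 CPM without SCVS replicate 4 (SD, n = 4 each). The 3 subunits that passed the filter had a median pairwise Spearman correlation of 0.57 over the 10 libraries, against a median of 0.00650 for all pairs of genes tested. The points of such a correlation share a library and its depth, and it is given as a description.

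The centromere and outer kinetochore genes were high in SCVS replicate 3. Cenpe (ENSMUSG00000045328, chr3:135212563-135273540), a kinesin that moves chromosomes to the spindle equator, had 1, 1, 0, 0 and 1 counts in naive replicates. It had 0, 1, 2887, 0 and 0 counts in SCVS replicates, or 46.9 ± 105 CPM (SD, n = 5), so that a single library held 99.9% of its counts. At 234 CPM in that library it was the most abundant mitotic gene there. Cenpf, a large protein of the outer kinetochore, had 1255 and 396 counts in SCVS replicates 3 and 4, 26 in naive replicate 2 and at most 3 elsewhere. Cenpa, the histone H3 variant that marks centromeres, was found in both groups, at 10.3 ± 12.8 CPM in 3 of 5 naive and 33.7 ± 65.1 CPM in 3 of 5 SCVS replicates (SD, n = 5 each). Without SCVS replicate 3 the SCVS mean of Cenpa was 4.805 ± 9.15 CPM (SD, n = 4), lower than the naive mean. The 3 genes summed to 10.8 ± 12.5 CPM in naive (5.67 ± 5.54 CPM without naive replicate 1, SD, n = 4) and 106.9 ± 212 CPM in SCVS replicates (SD, n = 5 each). Without SCVS replicate 3 the SCVS mean was 12.3 ± 14.5 CPM, close to the naive mean, and without SCVS replicate 4 it was 126.2 ± 239.6 CPM (SD, n = 4 each).

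Among the spindle checkpoint and APC/C genes, Mad2l1 was spread over most libraries, and Bub1, Bub1b and Ttk were each concentrated in a single library. Mad2l1 (ENSMUSG00000029910, chr6:66535221-66541107), which encodes the MAD2 protein that holds back CDC20, had 478, 0, 0, 119 and 0 counts in naive replicates. It had 18, 212, 348, 567 and 186 counts in SCVS replicates, with means of 10.9 ± 19.9 and 21.7 ± 15.3 CPM (SD, n = 5 each) and a naive mean of 2.19 ± 4.38 CPM without naive replicate 1 (SD, n = 4). Mad2l1 was thus detected in every SCVS replicate and in 2 naive replicates, and the groups overlapped. The checkpoint kinase Bub1 had 464 counts in SCVS replicate 4 and at most 1 elsewhere. Bub1b, which encodes BUBR1, was also highest in SCVS replicate 4, with 811 counts, followed by 57 in SCVS replicate 3 and at most 2 elsewhere. Ttk, the kinase that starts checkpoint signaling, had 13 counts in SCVS replicate 3 and 0 in the other 9.

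Cdc20, which activates the APC/C, had 157 and 588 counts in naive replicates 3 and 4, 983 and 82 counts in SCVS replicates 3 and 5, and 0 elsewhere. Ube2c, the ubiquitin-conjugating enzyme of the APC/C, was at 0 in all naive libraries and had 544, 211 and 88 counts in SCVS replicates 3, 4 and 5, at least 58.2-fold above the naive floor and at least 26.15-fold without SCVS replicate 3. The 6 genes summed to 21.9 ± 25.35 CPM in naive (14.4 ± 21.85 CPM without naive replicate 4, SD, n = 4) and 73.5 ± 76.75 CPM in SCVS replicates (SD, n = 5 each). The SCVS mean was 52.4 ± 69.9 CPM without SCVS replicate 3 and 53.1 ± 71.3 CPM without SCVS replicate 4 (SD, n = 4 each).

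Of the cyclins and mitotic kinases, Aurka went the opposite way from the others. Ccnb2 (ENSMUSG00000032218, chr9:70407689-70421554), a B-type cyclin that binds CDK1, had 0, 1, 0, 0 and 0 counts in naive and 0, 0, 2157, 396 and 0 counts in SCVS replicates, or 41.0 ± 76.0 CPM (SD, n = 5), at least 173-fold above the naive floor and at least 31.6-fold without SCVS replicate 3. Ccnb1, the other B-type cyclin, had 1539 and 592 counts in SCVS replicates 3 and 4 and at most 1 elsewhere. Cdk1, the kinase that drives entry into mitosis, had 949 and 1477 counts in the same libraries and at most 1 elsewhere. These 3 genes were therefore found in SCVS replicates 3 and 4 only. Ccna2, the cyclin of S phase and early mitosis, had 1284 counts in SCVS replicate 3, 140 and 27 in SCVS replicates 2 and 4, 49 in naive replicate 2 and at most 1 elsewhere.

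Aurkb and Birc5 encode the kinase and the survivin subunit of the chromosomal passenger complex, which corrects wrong attachments. In SCVS replicates 3 and 4, Birc5 had 735 and 1424 counts and Aurkb 9 and 582, and elsewhere neither gene had more than 1. Plk1, a kinase of centrosome maturation and kinetochore assembly, had 387 counts in SCVS replicate 3 and 0 in the other 9. Aurka, the kinase of spindle poles, was above the floor in 4 naive and 2 SCVS replicates, with 464, 274, 398, 0 and 257 counts in naive and 0, 31, 634, 0 and 0 counts in SCVS replicates. With all libraries used, Aurka was the only 1 of the 38 genes with a lower mean in SCVS. Its means were 22.75 ± 16.1 CPM in naive and 10.8 ± 22.75 CPM in SCVS replicates (SD, n = 5 each), and the groups overlapped. The SCVS mean of Aurka was 0.637 ± 1.27 CPM without SCVS replicate 3 (SD, n = 4). Cdc20, Cenpa and Cenpe also had lower SCVS means without that library. Spc24, Ndc80, Pcna, Mcm2 and Rrm2 had lower SCVS means without SCVS replicate 4. The 8 genes of this role summed to 23.6 ± 16.2 CPM in naive and 196 ± 280.2 CPM in SCVS replicates (SD, n = 5 each). All of them had 0 counts in SCVS replicates 1 and 5 and in naive replicate 4. Without SCVS replicate 3 the SCVS mean was 88.5 ± 168 CPM, and without SCVS replicate 4 it was 160 ± 310 CPM (SD, n = 4 each).

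All 6 spindle motor and cytokinesis genes were above the floor in more SCVS than naive libraries, beside 29.8% of all genes tested and 37.6% of those above the floor in at least 1 replicate. Prc1 (ENSMUSG00000038943, chr7:80294445-80316259), which bundles the microtubules of the central spindle, had 0, 81, 0, 1 and 0 counts in naive replicates and 0, 6, 555, 1839 and 8 counts in SCVS replicates. Its means were 1.28 ± 2.83 and 37.1 ± 60.15 CPM (SD, n = 5 each), and the groups overlapped. The naive mean of Prc1 was 0.0184 ± 0.0368 CPM without naive replicate 2 (SD, n = 4). Its SCVS mean was 11.6 ± 22.3 CPM without SCVS replicate 4 (SD, n = 4). Kif11, the motor that separates spindle poles, had 99, 3, 419, 329 and 0 counts in SCVS replicates and at most 1 in naive replicates. Kif20a, a kinesin of cytokinesis, had 455 and 469 counts in SCVS replicates 3 and 4 and at most 1 elsewhere. Kif23, the kinesin of the centralspindlin complex, had 388 counts in naive replicate 4, 143, 649 and 211 in SCVS replicates 2, 3 and 5, and at most 3 elsewhere.

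Tpx2, which activates the Aurora A kinase on the spindle, had 67, 701 and 68 counts in SCVS replicates 2, 3 and 4 and at most 7 in any other library. Hmmr, a hyaluronan receptor that also acts at spindle poles, had 6, 130 and 27 counts in SCVS replicates 1, 3 and 4 and at most 1 elsewhere. The 6 genes summed to 7.245 ± 12.6 CPM in naive (1.74 ± 3.33 CPM without naive replicate 4, SD, n = 4) and 98.0 ± 113 CPM in SCVS replicates (SD, n = 5 each). The SCVS mean was 63.5 ± 95.6 CPM without SCVS replicate 3 and 70.85 ± 110.3 CPM without SCVS replicate 4 (SD, n = 4 each).

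Mki67 and Top2a mark chromosomes of cycling cells. Mki67 (ENSMUSG00000031004, chr7:135689784-135716450), which encodes the Ki-67 antigen, had 0, 1, 0, 106 and 0 counts in naive replicates. It had 0, 0, 312, 154 and 273 counts in SCVS replicates, with means of 1.58 ± 3.48 and 12.9 ± 13.2 CPM (SD, n = 5 each). The naive mean of Mki67 was 0.0196 ± 0.0392 CPM without naive replicate 4 (SD, n = 4). SCVS replicate 5 had the highest CPM of Mki67, although all 8 cyclins and mitotic kinases were at 0 there. Top2a (ENSMUSG00000020914, chr11:98992947-99024199), the topoisomerase that untangles chromosomes, had 0, 8, 0, 0 and 0 counts in naive and 44, 85, 1995, 1225 and 0 counts in SCVS replicates. Its means were 0.125 ± 0.280 and 52.9 ± 72.2 CPM (SD, n = 5 each), and the groups overlapped through the 0 in SCVS replicate 5. The sum of both genes was 1.70 ± 3.43 CPM in naive replicates (SD, n = 5) and 0.176 ± 0.352 CPM without naive replicate 4 (SD, n = 4). In SCVS replicates this sum was 65.8 ± 79.2 CPM (SD, n = 5). It was 35.4 ± 47.1 CPM without SCVS replicate 3 and 56.2 ± 87.99 CPM without SCVS replicate 4 (SD, n = 4 each).

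**Figure D3:**
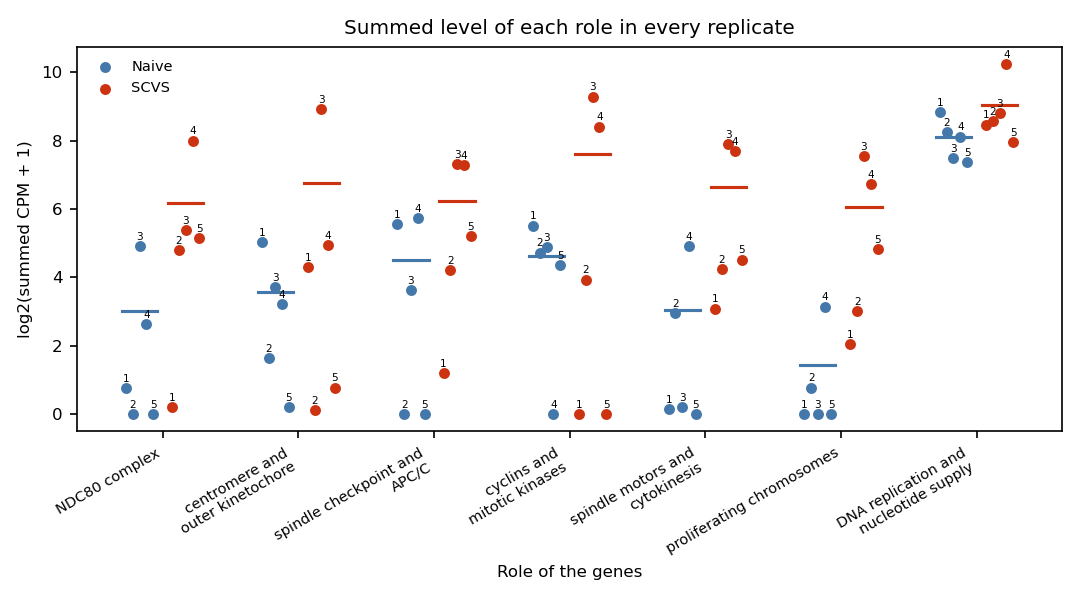
Sum of CPM over the genes of each role, as log2(summed CPM + 1), in the 5 naive (blue) and 5 SCVS (red) replicates, with the replicate number beside each point. Lines mark the log2 of the mean sum plus 1. In the 6 mitotic roles the highest point is SCVS replicate 3 or 4, and the replication genes are above 7 on this scale in every replicate.

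The replication genes were expressed in both groups. Pcna (ENSMUSG00000027342, chr2:132249286-132253180), the sliding clamp of DNA polymerases, had 3025, 1174, 1704, 1868 and 828 counts in naive replicates. It had 2068, 1632, 2156, 4403 and 589 counts in SCVS replicates. Means were 141 ± 88.4 CPM in naive and 169.5 ± 101 CPM in SCVS replicates (SD, n = 5 each), a ratio of 1.20. The SCVS mean of Pcna was 128.7 ± 49.5 CPM without SCVS replicate 4 (SD, n = 4), lower than the naive mean. The naive mean was 103.4 ± 33.4 CPM without naive replicate 1 (SD, n = 4). Pcna and Mcm6 were the only genes of the 38 above the floor in all 10 libraries. The same held for 38.1% of all genes tested and 23.3% of those above the floor in at least 1 replicate. Per length of exon Pcna was the most abundant of the 38, at 58.7 CPM per kb in naive and 70.6 CPM per kb in SCVS replicates.

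MCM2-7 is the ring-shaped helicase that opens DNA at replication origins. All 6 subunits were above the floor in naive replicate 4 and SCVS replicates 4 and 5, and the other libraries had 3, 5, 4 and 1 (naive replicates 1, 2, 3 and 5) and 5, 4 and 5 (SCVS replicates 1 to 3). With more than 10 counts as the requirement, all 6 subunits were found in SCVS replicate 4 only. Mcm6 had means of 49.4 ± 36.55 and 87.7 ± 81.1 CPM in naive and SCVS replicates, and Mcm4 26.6 ± 28.7 and 71.7 ± 41.6 CPM (SD, n = 5 each). Single libraries carried much of these means: Mcm6 had an SCVS mean of 53.7 ± 32.9 CPM without SCVS replicate 4, and Mcm4 a naive mean of 15.96 ± 18.45 CPM without naive replicate 1 (SD, n = 4 each). The other 4 subunits had naive means from 1.89 CPM (Mcm5) to 16.9 CPM (Mcm7) and SCVS means from 8.33 CPM (Mcm5) to 46.85 CPM (Mcm3). Without naive replicate 4 the naive mean was 0.0179 CPM for Mcm5, 1.63 CPM for Mcm3 and 1.74 CPM for Mcm2 (n = 4). SCVS means without SCVS replicate 4 were 3.005 CPM for Mcm5, 5.53 CPM for Mcm2 and 25.4 CPM for Mcm7 (n = 4). That of Mcm2 was then lower than its naive mean of 7.36 CPM (n = 5). For Mcm3 the SCVS mean was 24.1 CPM without SCVS replicate 2 (n = 4). The median pairwise Spearman correlation of the 6 subunits was 0.31 over 10 libraries.

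Of the enzymes of nucleotide supply, Tyms, which makes thymidylate, was above the floor in 4 naive and 5 SCVS replicates, at 17.2 ± 12.4 and 50.2 ± 48.35 CPM (SD, n = 5 each), with an SCVS mean of 31.85 ± 29.6 CPM without SCVS replicate 3 (SD, n = 4). Rrm2, a subunit of ribonucleotide reductase, had 307 counts in naive replicate 5, 1422 in SCVS replicate 4 and at most 12 elsewhere. The 9 replication genes summed to 275 ± 117 CPM in naive and 526 ± 384 CPM in SCVS replicates (SD, n = 5 each). SCVS replicate 4 had 1201 CPM, SCVS replicate 3 had 448 CPM, and the naive range was 164 to 456 CPM. Without SCVS replicate 4 the SCVS mean was 357 ± 83.1 CPM (SD, n = 4), within that range, and without naive replicates 1 and 5 the naive mean was 252 ± 64.9 CPM (SD, n = 3). Of the 9, 7 were highest in SCVS replicate 4. Of the 29 mitotic genes 17 were highest in SCVS replicate 3 and 10 in SCVS replicate 4. Among all genes tested 10.7% were highest in SCVS replicate 3 and 9.15% in SCVS replicate 4. Among genes above the floor in at least 1 replicate these shares were 9.69% and 10.65%. A difference between the replication and the mitotic genes was not tested.

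In the fit across all genes, 26 of the 38 genes had more than 5 counts in at least 3 replicates and were tested, and 12 were not (Spc24, Cenpe, Bub1, Bub1b, Ttk, Cdk1, Ccnb1, Ccnb2, Plk1, Aurkb, Birc5 and Kif20a). A gene with at most 3 counts in every naive replicate passed this filter only where more than 5 counts were present in at least 3 SCVS replicates, so the 26 are not a sample of the 38. In edgeR's quasi-likelihood test with adjusted p under 0.1, 0 of the 26 genes were called, beside 0% of all 14815 genes tested. At an unadjusted p under 0.05, 7 of the 26 passed, beside 3.1% of all genes tested. This count was 3 of 21 without SCVS replicate 3 (384 of all 14337 genes tested) and 3 of 18 without SCVS replicate 4 (379 of 14242). It was 3 of 26 with the replicate number as a block (266 of 14815) and 10 of 25 without naive replicate 4 (530 of 14336). DESeq2 with default settings called 4 of the 26 higher in SCVS (Spc25, Top2a, Kif11 and Ube2c), beside 0.499% of all genes tested, edgeR's likelihood ratio test called 1 (Spc25, among 38 genes called in all), and limma with voom called 0 (3 in all). Spc25 was the only gene of the 38 that DESeq2 called when SCVS replicate 3 or SCVS replicate 4 was left out, among 122 and 98 genes called in all, and 8 were called without naive replicate 4, among 169 in all.

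At most 3 counts in every naive replicate and more in at least 2 SCVS replicates were found for 4 of the 26 genes tested, beside 1.24% of all genes tested. Over all 38 the count was 11, beside 3.77% of the genes above the floor in at least 1 replicate. The reverse pattern was found for 0 of the 26, beside 0.56% of all genes tested, and for 0 of the 38, beside 2.01% of the genes above the floor in at least 1 replicate. The fitted log2 fold change was above 0 for 25 of the 26 genes and below 0 for Aurka, with a median of 2.15, and this median was the same with the 4 genes without detection in naive replicates set to their lower bound. It was 4.58 without naive replicate 4 and 4.89 over all 38 genes without the filter. The median over all genes tested was −0.03. Of the genes tested without SCVS replicate 3, 18 of 21 were above 0, and without SCVS replicate 4, 15 of 18. By role the medians, with such genes at their bound, were 6.94 for the NDC80 complex, 5.87 for Mki67 and Top2a, 4.90 for spindle motors and cytokinesis, and 3.75 for the centromere and outer kinetochore. They were 1.92 for the cyclins and mitotic kinases, 1.56 for the replication genes, and 0.93 for the spindle checkpoint and APC/C, each over the genes of the role that passed the filter. Because the genes were chosen with this contrast in view, the calls and shares over them are a description, and nothing is read from them.

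A further 184 cell cycle genes outside the 38 were placed in 6 lists by textbook function. These lists too were drawn up with earlier results of the data known, and their counts are a description. Of these genes, 147 passed the filter and 0 were called in edgeR's quasi-likelihood test, with 7 at an unadjusted p under 0.05, beside 3.1% of all genes tested. DESeq2 called 2 of them higher in SCVS (Fbxo5 and Pkmyt1), beside 0.499% of all genes tested, edgeR's likelihood ratio test called 1 (Pkmyt1, among 38 genes called in all) and limma with voom called 0. In DESeq2, without SCVS replicate 3 Pkmyt1 alone was called, and without SCVS replicate 4 only Cenpu, lower in SCVS.

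In the list of other spindle and cytokinesis genes, all 14 genes that passed the filter, of 20, were above 0 (median log2 fold change 3.41), beside 7137 of all 14815 genes tested, and 10 of 14 were highest in SCVS replicate 3, beside 10.7% of all genes tested. In SCVS replicates 3 and 4, 16 and 15 of its 20 genes were above the floor, against 4 to 9 in the other libraries. The same numbers were 25 and 32 of 39 for other kinetochore and centromere genes (14 to 20 elsewhere), 32 and 40 of 44 for other replication genes (21 to 32), 30 and 40 of 43 for genes of G1 and CDK control (25 to 32), and 18 and 19 of 21 for cohesin and condensin genes (14 to 17). Ect2, the exchange factor that sets the cleavage furrow, had the smallest p of this list, with 1344, 41 and 21 counts in SCVS replicates 3, 4 and 5 and at most 3 elsewhere, at least 96.65-fold above the naive floor and at least 5.64-fold without SCVS replicate 3 (adjusted p = 0.964, edgeR quasi-likelihood test). Of 24 other kinetochore and centromere genes tested, 14 were above and 10 below 0 (median 0.14). Incenp, the scaffold of the chromosomal passenger complex, had a log2 fold change of 5.21 (standard error 2.54) and the centromere protein gene Cenpu one of −4.32 (standard error 2.54), both with an adjusted p of 1 in edgeR's quasi-likelihood test.

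The list of other APC/C genes, which holds subunits and regulators, had 15 to 17 of 17 genes above the floor in each replicate and 13 of 17 above it in all 10. Of the 17, 10 were above and 7 below 0, with a median log2 fold change of 0.09. In this list Fbxo5, the APC/C inhibitor EMI1, had 42, 256, 276 and 110 counts in SCVS replicates 2 to 5 and at most 2 elsewhere, at least 47.4-fold above the naive floor (adjusted p = 0.964, edgeR quasi-likelihood test). Anapc16, an APC/C subunit, had a log2 fold change of −0.52 (standard error 0.33). Cohesin and condensin genes had 11 above and 8 below 0 (median 0.06), with Cdca5, the cohesin protector sororin, at 5.51 (standard error 3.01) and Rad21, the cohesin subunit cut at anaphase, at −1.30 (standard error 0.57). None of these passed the threshold in edgeR's quasi-likelihood test, in which the smallest adjusted p over the 147 genes was 0.964.

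Other replication genes had 28 above and 10 below 0 (median log2 fold change 0.62), with the licensing factor Cdt1 at 7.14 (standard error 3.17) and the polymerase subunit Pole2 at −4.68 (standard error 2.90). Genes of G1 and of CDK control had 22 above and 13 below 0 (median 0.18). Among them Pkmyt1, a kinase that inhibits CDK1, had 0 counts in naive replicates and 208, 219, 0, 72 and 60 counts in SCVS replicates, at least 37.3-fold above the naive floor and at least 27.7-fold with any SCVS replicate left out. It was absent from SCVS replicate 3, where Cdk1 and the B-type cyclins were high. Tfdp1, the partner of E2F factors, had a log2 fold change of −1.09 (standard error 0.64).

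Several of the 38 genes overlap others in the annotation, and since the use of strand in counting is not stated, reads there cannot be assigned with certainty. Ccna2 overlaps Exosc9, Aurka overlaps Cstf1, Cdc20 overlaps Elovl1, Prc1 overlaps Rccd1, Mcm7 overlaps Ap4m1, and Kif20a overlaps Brd8 and Cdc23. Exosc9, Cstf1, Elovl1 and Cdc23 had counts in every replicate, 855 to 3419 for Elovl1, including those where Ccna2, Aurka, Cdc20 or Kif20a was at 0. Brd8 had 0 counts in naive replicate 1 and 417 to 1752 elsewhere. Rccd1 was highest in naive replicate 2, with 265 counts, where Prc1 had 81. It had 1 count in SCVS replicate 4, where Prc1 had 1839. Ap4m1 was highest in naive replicate 3, with 530 counts, where Mcm7 had 497. It had 1 count in SCVS replicate 4, where Mcm7 had 1464. Ccnb2 has a pseudogene, Ccnb2-ps, with 50 counts in naive replicate 1 and 217 and 121 in SCVS replicates 1 and 2, where Ccnb2 itself was at 0. The positions given here are those of RefSeq on GRCm38.p6, the build named in the submitters' processing notes, whereas the methods of the study name mm9.

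Promoter sequence was not used in the choice of the genes. In RefSeq promoters of GRCm38.p6, 250 bases before to 50 bases after the start, 32 of the 38 genes were matched (all but Mcm4, Kif20a, Ccna2, Tpx2, Aurkb and Spc24), and both strands were searched. The cell cycle homology region (CHR), TTTGAA, which the DREAM and MMB complexes bind, was present in 18 of 24 mitotic promoters (75%), 1 of 8 replication promoters (12.5%) and 18.1% of all 27025 promoters. CCAAT, the NF-Y box, was present in 20 of 24 (83.3%), 7 of 8 (87.5%) and 37.9%. None of the motifs searched was present in Birc5, Mad2l1, Nuf2 and Tyms. CHR and CCAAT together were found in 17 of 24 mitotic promoters (70.8%) and 7.12% of all promoters. Any of the E2F-type words TTTGGCGC, TTTGCCGC, TTTCGCGC and TTTCCCGC was present in 1 of 24 mitotic promoters (4.17%), 4 of 8 replication promoters (50%) and 2.32% of all promoters. In the 100 bases before the start alone, CHR was present in 25% of mitotic promoters and 5.91% of all promoters, and an E2F-type word in 12.5% of replication promoters. A match of letters is a description and not a binding site.

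The 120 bases before the start are shown, 5′ to 3′ on the strand of the gene, for Spc25, for Ube2c and Kif11 as other genes near 0 in all naive libraries, for Cdk1, the kinase that B-type cyclins bind, and for Mcm6 as a replication gene detected in every library. Capitals mark CHR, CCAAT and E2F-type words on either strand. Cdk1 holds CHR and CCAAT at 2 places each, Ube2c 1 CHR and 2 CCAAT, Kif11 1 of each, and Mcm6 2 CCAAT and 3 E2F-type words, of which an adjoining pair overlaps, without a CHR. Spc25 shows 2 CCAAT in this stretch, and its CHR lies elsewhere in the window from 250 bases before to 50 bases after the start. The stretches lie directly upstream of each annotated start, at chr2:69206214-69206333 (minus strand) for Spc25, chr2:164769809-164769928 (plus strand) for Ube2c, chr19:37376262-37376381 (plus strand) for Kif11, chr10:69352913-69353032 (minus strand) for Cdk1 and chr1:128359706-128359825 (minus strand) for Mcm6.
Spc25: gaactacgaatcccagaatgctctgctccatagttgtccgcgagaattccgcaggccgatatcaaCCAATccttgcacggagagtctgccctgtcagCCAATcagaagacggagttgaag
Ube2c: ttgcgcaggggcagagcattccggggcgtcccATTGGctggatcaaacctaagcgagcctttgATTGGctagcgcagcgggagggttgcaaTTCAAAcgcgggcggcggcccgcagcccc
Kif11: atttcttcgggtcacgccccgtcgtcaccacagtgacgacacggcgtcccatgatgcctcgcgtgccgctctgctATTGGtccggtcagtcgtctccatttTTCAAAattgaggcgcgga
Cdk1: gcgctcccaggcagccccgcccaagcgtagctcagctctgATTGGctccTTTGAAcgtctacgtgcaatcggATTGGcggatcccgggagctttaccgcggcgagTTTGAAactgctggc
Mcm6: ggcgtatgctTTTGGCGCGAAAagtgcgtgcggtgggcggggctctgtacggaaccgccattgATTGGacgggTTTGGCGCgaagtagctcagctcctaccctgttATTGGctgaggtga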

How the data were processed

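The authors deposited raw counts per gene for each replicate, made per the submitters' processing notes with cutadapt 1.9.1, HISAT2 2.0.1 and HTSeq 0.6.1 on GRCm38, with DESeq2 also credited, whereas the methods of the paper name mm9. The annotation release and the strand setting of the counting are not stated. Replicates are separate pools of meninges.

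Counts were read in Python 3.11.15 (NumPy 2.4.6, SciPy 1.17.1, Matplotlib 3.10.9) and divided by column totals to give CPM. Fits used R 4.3.3 with edgeR 4.0.16 (TMM normalization, quasi-likelihood test) on 14815 genes left by a filter (3 or more samples with over 5 counts), with a Benjamini-Hochberg adjusted p under 0.1. The alternatives were limma 3.58.1 with voom, DESeq2 1.42.0, edgeR's likelihood ratio and robust tests, other size factors and filters, a replicate block, a covariate for genes detected, and each replicate left out. Leaving out naive replicates 1 and 5 together, and leaving out each replicate in DESeq2, were added after the data were seen.

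A gene with at most 3 counts in a replicate was treated as not detected. This floor covers counting error only, as there were no molecular identifiers. Where a gene was at or below the floor in all naive replicates, its fold is a lower bound against the mean floor. The 38 genes and the lists were chosen with earlier results of these data known. Values of all 10 replicates are printed for the NDC80 subunits and for genes that stand for a role, and the other genes are given by counts and ranges. Exon lengths come from GENCODE M1 on NCBIM37, where all 38 genes were found, and were used for CPM per kb only. Marker lists were compared by exact permutation of the summed CPM. The fitting code was tested on simulated data, as a check of the code. The common biological coefficient of variation of the real data in edgeR was 1.59. The share of true changes that the fit finds at that spread is not given here.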

Additional observations from a re-analysis of the deposited data

Results flagged for a closer look

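In 22 of 79 groups of 5 replicates, 1 replicate lay far from the others of its group by Dixon's test. The test was applied to levels and summed levels as log2(CPM + 1), and to numbers of genes detected as they are. Single genes at or under the floor were taken as 0. For values of a normal distribution, chance alone flags about 1 in 20 groups. That rate does not apply here, since a gene above the floor in only 1 of 5 replicates is flagged by construction. Most of the 22 are groups in which the gene was at or near 0 in the other replicates. In naive replicates, the flagged levels were 0.6717 CPM of Nuf2 in replicate 1, 0.6264 CPM of Top2a, 3.837 CPM of Ccna2, 2.036 CPM of Cenpf and 6.343 CPM of Prc1 in replicate 2, 29.12 CPM of Ndc80 in replicate 3, and 23.03 CPM of Rrm2 in replicate 5. Naive replicate 4 was flagged for 5.157 CPM of Spc24, 7.81 CPM of Mki67, 0.5157 CPM of Tpx2, 28.59 CPM of Kif23, 9.357 CPM of Mcm5 and, as the only low value of a single gene, 0 CPM of Aurka. Naive replicate 4 was also flagged for a summed 0 CPM of the cyclins and mitotic kinases and a summed 7.81 CPM of Mki67 and Top2a.

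In SCVS replicates, the flagged levels were 234.2 CPM of Cenpe, 31.4 CPM of Plk1 and 1.055 CPM of Ttk in replicate 3, and 21.31 CPM of Spc24, 35.06 CPM of Bub1, 43.98 CPM of Aurkb and 107.5 CPM of Rrm2 in replicate 4.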

How the results depend on the processing

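Against 0 genes called by edgeR's quasi-likelihood test, DESeq2 called 114, limma with voom 3 and edgeR's likelihood ratio test 38. Of the 38 genes, these called 4, 0 and 1, and of the other cell cycle genes 2, 0 and 1. With naive replicates 1 and 5 both left out, DESeq2 called 235 genes, 4 of the 38 and 7 of the other cell cycle genes. With naive replicates 1 to 5 and then SCVS replicates 1 to 5 left out in turn, DESeq2 called 116, 129, 114, 169, 214, 116, 116, 122, 98 and 121 genes, then 4, 5, 3, 8, 4, 3, 4, 1, 1 and 3 of the 38, and 2, 5, 3, 2, 7, 1, 1, 1, 1 and 1 of the other cell cycle genes. The edgeR quasi-likelihood test called 0 with each replicate left out. The median log2 fold change, 2.15, was 4.89 without the filter on low counts, 4.64 in DESeq2 without naive replicate 4, 1.36 with edgeR's filterByExpr (10 genes tested), 1.49 with a covariate for genes detected, and 1.61 to 4.58 in edgeR with each replicate left out. With more than 10 counts required, all MCM2-7 subunits were found in 1 replicate in place of 3. In the 100 bases before the start, CHR was in 25% of mitotic promoters and E2F-type words in 0% of mitotic and 12.5% of replication promoters. Of 790 fold changes of single genes under the alternatives, 46 moved by more than their standard error and 12 had the other sign, in Cdc20, Cenpa, Mcm2, Mcm5, Pcna and Rrm2.

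With the replicate number as a replicate block, 0 genes were called, 266 passed an unadjusted p under 0.05, and the median log2 fold change of the 26 genes tested was 3.46. The numbers only index the replicates as far as the labels say. Deviations from the group mean correlated across genes at 0.0364, 0.0450, −0.0169, 0.0635 and 0.149 between naive and SCVS replicates of the same number, and 4 of 5 were best matched with their own number. The cause was not tested.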
